A study of Arabidopsis thaliana with 16 samples.

Results

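Seedlings of an Arabidopsis thaliana line in which the transcription factor SPEECHLESS (SPCH) can be switched on were compared 12 h after dexamethasone with seedlings of the same line at 0 h. The comparison took every library that the labels give to this line at these times, 4 at 12 h and 4 at 0 h, which is 8 of the 16 libraries of the study. The line is homozygous for ATML1pro:GR-SPCH1-4A-YFP. In it the promoter of ATML1, which is active in the epidermis, drives a SPCH protein joined to part of the glucocorticoid receptor (GR) and to a yellow fluorescent protein. As background, the receptor part keeps the protein out of the nucleus until the steroid dexamethasone is added, and SPCH1-4A is a form that lacks several sites at which MAP kinases phosphorylate SPCH. Both groups were whole seedlings 7 days post germination, grown in liquid MS medium with sucrose on a rotating platform. The 12 h group had received 100 μM dexamethasone and the 0 h group none. No group of this line was kept for 12 h without the steroid among the libraries used here, so dexamethasone and elapsed time cannot be told apart within the line. Wild-type seedlings, 4 libraries 12 h after the same treatment and 4 at 0 h, were used to test where the change of the line differed from that of wild type. Whether the line is a single transformant, and whether libraries of 1 group were grown apart, is not in the labels. The p-values below are thus set by how far these libraries differ, and some of that spread may be technical.

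Values are normalised counts, the reads assigned to a gene divided by a size factor of the library, and replicates 1 to 4 are always given in that order. The 12 h libraries of the line held 18421440 to 20456141 reads assigned to genes and its 0 h libraries 16876720 to 19741388. The wild-type libraries held 16251477 to 18888133 at 12 h and 16590689 to 22944391 at 0 h. Replicates 1 and 2 of each group were sequenced in 1 lane and replicates 3 and 4 in another. Among the 8 libraries of the line the first principal component, with 59% of the variance, separated the lanes, and the second, with 20.3%, separated 12 h from 0 h. Mitochondrial genes took 0.00706% to 0.00884% of reads in lane 1 and 0.0169% to 0.0387% in lane 2, and a lane term was part of each fit. The sampled material was whole seedlings, and summed markers of guard cells, trichomes, root hairs, endodermis and phloem or xylem were above 0 in every library. RNA came from many cell types at once, so fewer cells of a type and less RNA per cell cannot be told apart.

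Stomata are pores in the leaf epidermis, each framed by a pair of guard cells. SPCH, a basic helix-loop-helix (bHLH) transcription factor, pairs with ICE1 or SCRM2 and starts the lineage by driving asymmetric divisions of epidermal cells. The later factors MUTE and FAMA end these divisions and set guard cell fate. Secreted peptides of the EPF family restrict the lineage through receptors of the ERECTA family and the receptor-like protein TMM, which act on SPCH through a MAP kinase cascade. BASL and POLAR mark one side of the dividing cell.

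Over the 12 h, 2759 of 20250 genes tested in the line changed, or 13.6% of them. Of these 1146 rose (5.66% of genes tested) and 1613 fell (7.97%), with adjusted p under 0.05 in limma with the Benjamini-Hochberg method, which gave every adjusted p below unless another tool is named. The median change over all genes tested was 0.01 on the log2 scale. Rises were smaller than falls: the median size was 0.47 among genes that rose and 0.69 among genes that fell, and 139 rises but 440 falls reached 1. Genes that rose held 9.11% of all normalised counts at 12 h and 6.32% at 0 h, and genes that fell held 7.86% at 12 h and 11.8% at 0 h. In 1911 of the changed genes the 12 h libraries did not overlap the 0 h libraries, as was so for 13.1% of all genes tested. Fold changes are on the scale of log2 (normalised count + 1), so that changes of low genes come out too small.

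Leaving out 1 library gave 713 rises and 1210 falls without 0 h replicate 4 of the line, and 767 to 888 rises and 1300 to 1422 falls without any other, so that library moved the rises by over 1.5 times. Without a lane term 372 genes rose and 820 fell. In 1 fit of all 16 libraries without it 299 rose and 764 fell, so the share of rises among changed genes was 28% there against 41.5% with the lane term and these 8 libraries.

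Wild type had 14.5% of genes changed, 6.68% higher and 7.84% lower at 12 h. These values come from a fit that also held the libraries of the line. In that fit 1921 of 20756 genes changed in the line, 668 higher and 1253 lower, against 3014 in wild type. The other counts of the line, those of the gene lists included, come from its own fit. They are thus not directly comparable in size with the wild-type counts. The 2 comparisons contrast separate libraries, but the wild-type calls rest on a spread estimated in part from libraries of the line. The calls of the 2 comparisons are thus not independent. Of the genes tested in both, 752 changed in the same direction in both, which is 27.3% of the 2759 changed in the line and 25.1% of the 2998 changed in wild type. They comprised 334 that rose and 418 that fell in both lines, while 41 moved in opposite directions. The change of the line minus that of wild type, called the line-by-time difference below, passed its threshold for 586 of 20756 genes (2.82%), 191 higher (0.92%) and 395 lower (1.9%). Of the genes changed in the line 381 also had such a difference: 80 rose with a higher change than in wild type, 298 fell with a lower one and 3 rose with a lower one. The count of differences depended on single libraries. It was 264 without 0 h replicate 4 of the line, 234 without its 12 h replicate 2, 1934 without wild-type 0 h replicate 1, 369 and 338 without wild-type 0 h replicates 3 and 4, and 288 and 283 without wild-type 12 h replicates 2 and 4.

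**Figure D1:**
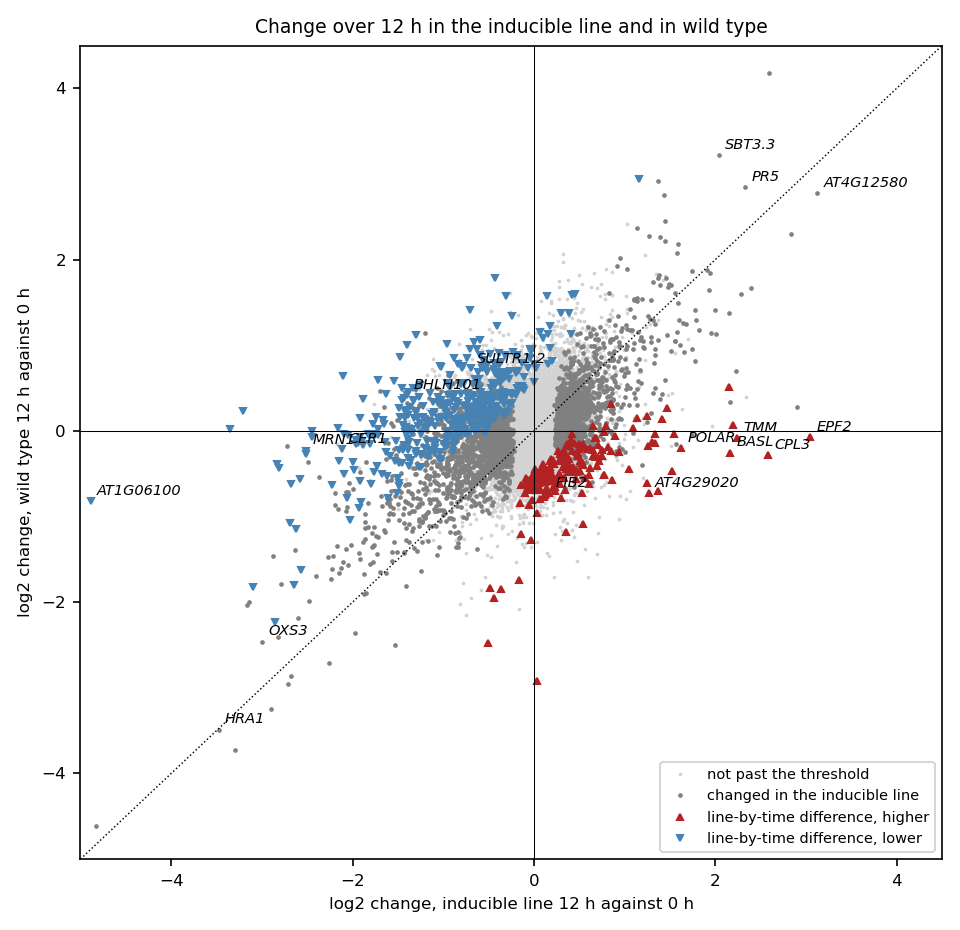
Log2 change over 12 h in the inducible line (horizontal) and in wild type (vertical), a point per gene; triangles mark genes with a line-by-time difference and the dotted line marks equal changes. EPF2, TMM, CPL3, BASL and POLAR lie far right with wild-type values between -0.29 and -0.07, while HRA1, OXS3, PR5 and SBT3.3 moved in the same direction in both lines.

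Among the stomatal transcription factors SPCH and its partner proteins rose, and the factors that act later in the lineage did not pass the test. SPCH had 211, 197, 158 and 233 normalised counts in the 12 h libraries and 116, 144, 154 and 145 in the 0 h libraries. The groups did not overlap, with replicate 3 the lowest at 12 h and the highest at 0 h. SPCH rose 1.42-fold (log2 0.51, SE 0.14, adjusted p = 0.033), and an exact permutation test over the 70 assignments of these libraries gave its smallest possible 2-sided p of 0.0286. Reads of the transgene can count toward SPCH, so this value is not that of the native gene alone. The limma call was lost without 0 h replicate 1, 2 or 4 (adjusted p = 0.1, 0.055 and 0.0722) and without 12 h replicate 1, 2 or 4 (0.0921, 0.0733 and 0.101). The line-by-time difference of SPCH was 0.46 and did not pass (adjusted p = 0.24).

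ICE1 and SCRM2 encode the bHLH partners with which SPCH acts. ICE1 had 1569, 1554, 1349 and 1499 normalised counts at 12 h, against 928, 974, 906 and 833 at 0 h. SCRM2 had 917, 1125, 851 and 1137 at 12 h, against 614, 671, 600 and 560 at 0 h. For both genes every 12 h library was above every 0 h library. Each rose 1.64-fold, with a log2 change of 0.71 (SE 0.07, adjusted p = 3.5e-05) for ICE1 and 0.71 (SE 0.10, adjusted p = 0.00057) for SCRM2. In wild type ICE1 fell by 0.35 on the log2 scale (adjusted p = 0.0084) and SCRM2 had a change of -0.31 (adjusted p = 0.056). The line-by-time differences were 1.07 (SE 0.12, adjusted p = 5.8e-05) for ICE1 and 1.02 (SE 0.15, adjusted p = 0.0013) for SCRM2.

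Of the 11 stomatal transcription factors 4 rose and none fell, with a median change of 0.28 against 0.01 over all genes tested. The remaining riser was TCX2, which encodes a DNA-binding protein that restrains lineage divisions (log2 0.40, adjusted p = 0.024). FAMA, the factor of guard cell fate, had 319, 361, 306 and 362 normalised counts at 12 h, against 246, 280, 281 and 302 at 0 h. Its groups did not overlap, and its change of 0.28 did not pass (adjusted p = 0.083). MUTE, which ends the asymmetric divisions, had 18.4 to 38.4 normalised counts at 12 h and 21.0 to 38.4 at 0 h (log2 -0.17, adjusted p = 0.67). FLP, MYB88, SCAP1, HDG2 and TSO1 had changes between -0.15 and 0.29 with overlapping groups. The call of TCX2 was lost without 0 h replicate 1, 2 or 4 (adjusted p = 0.0802, 0.0634 and 0.0558) and without 12 h replicate 2 or 4 (0.0743 and 0.0546). Without any 1 of these 5 libraries the list had 2 risers, ICE1 and SCRM2.

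The promoters of the 5 strongest rises among stomatal and epidermal patterning genes are shown because SPCH is known as a factor that binds E-boxes, the motif CANNTG. Each sequence is the 250 bases upstream of the gene start in RefSeq's annotation of TAIR10.1, in the direction of transcription, with E-boxes in capitals. The motif was searched on both strands and reads the same on each. The intervals are chr1:12472618-12472867 on the plus strand for EPF2, chr1:30129650-30129899 on the minus strand for TMM, chr5:24489837-24490086 on the minus strand for BASL, chr4:15385030-15385279 on the plus strand for POLAR and chr4:460145-460394 on the plus strand for CPL3.
EPF2: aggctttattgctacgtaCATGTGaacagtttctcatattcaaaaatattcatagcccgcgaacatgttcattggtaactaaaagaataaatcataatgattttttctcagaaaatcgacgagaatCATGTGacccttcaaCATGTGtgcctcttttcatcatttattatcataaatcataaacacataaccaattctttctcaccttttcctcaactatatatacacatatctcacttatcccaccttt
TMM: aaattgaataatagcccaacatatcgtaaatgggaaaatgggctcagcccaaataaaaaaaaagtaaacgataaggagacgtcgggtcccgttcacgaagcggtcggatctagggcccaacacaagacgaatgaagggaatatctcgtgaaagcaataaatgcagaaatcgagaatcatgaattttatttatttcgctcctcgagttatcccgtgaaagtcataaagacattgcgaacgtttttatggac
BASL: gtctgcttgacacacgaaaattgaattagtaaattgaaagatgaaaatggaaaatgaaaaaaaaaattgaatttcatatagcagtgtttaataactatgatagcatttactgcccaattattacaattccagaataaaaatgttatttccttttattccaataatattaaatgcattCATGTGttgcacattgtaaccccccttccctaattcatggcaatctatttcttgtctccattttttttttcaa
POLAR: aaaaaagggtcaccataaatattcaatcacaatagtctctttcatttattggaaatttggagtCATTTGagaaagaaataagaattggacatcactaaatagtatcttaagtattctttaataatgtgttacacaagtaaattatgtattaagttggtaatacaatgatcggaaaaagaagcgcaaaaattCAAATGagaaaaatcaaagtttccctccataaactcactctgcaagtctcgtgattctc
CPL3: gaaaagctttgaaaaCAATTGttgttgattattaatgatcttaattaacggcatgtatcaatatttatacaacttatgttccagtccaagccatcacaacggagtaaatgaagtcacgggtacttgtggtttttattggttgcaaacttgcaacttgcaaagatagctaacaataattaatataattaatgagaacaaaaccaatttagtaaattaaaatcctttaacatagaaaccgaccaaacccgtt
The window of EPF2 held 3 E-boxes, all CATGTG, that of BASL 1 CATGTG, that of POLAR 2 and that of CPL3 1, and these letters were not in the window of TMM. An E-box was present in 55.3% of the windows of all 26711 nuclear protein-coding genes, in 57.3% of those of genes that rose and in 58.3% of those of genes that fell. These matches describe the letters of the windows and were not tested as binding sites.

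EPF2 (AT1G34245), a peptide signal that holds back entry to the stomatal lineage, had the largest fold rise of the lineage genes. It had 379, 421, 392 and 723 normalised counts at 12 h, against 39.8, 43.8, 79.0 and 66.4 at 0 h. The highest library was 12 h replicate 4, and the lowest 12 h library was over 4 times the highest 0 h library. The rise was 8.25-fold (log2 3.04, SE 0.18, adjusted p = 1.3e-06). Wild type had 57.2 to 67.3 at 12 h and 42.3 to 93.0 at 0 h, and the line-by-time difference was 3.11 (SE 0.27, adjusted p = 3.5e-06).

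TMM (AT1G80080), the receptor-like protein through which such peptides act, had 1350, 1400, 1205 and 1450 normalised counts at 12 h, against 265, 311, 297 and 271 at 0 h. The 4 libraries of each group lay close together and far apart from those of the other. TMM rose 4.71-fold (log2 2.24, SE 0.09, adjusted p = 1.7e-08), and its line-by-time difference was 2.32 (SE 0.17, adjusted p = 4.7e-07).

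The ERECTA family of receptor kinases moved by smaller amounts and not all one way. ERL1 had 256, 292, 227 and 217 normalised counts at 12 h, against 186, 162, 137 and 134 at 0 h. In each lane both 12 h libraries were above both 0 h libraries. ERL1 rose 1.61-fold (log2 0.68, SE 0.10, adjusted p = 0.00085). ER, the founding member, had 555, 673, 590 and 617 at 12 h, against 707, 754, 888 and 717 at 0 h. It fell 1.26-fold (log2 -0.33, adjusted p = 0.034) and also fell in wild type (-0.38, adjusted p = 0.024). ERL2 had a change of 0.33 (adjusted p = 0.072), which passed without 0 h replicate 4 of the line (adjusted p = 0.0295). The call of ER was lost without 0 h replicate 2 or 3 (adjusted p = 0.0739 and 0.0993) and without 12 h replicate 1, 3 or 4 (0.0993, 0.0857 and 0.0676). The line-by-time difference of ERL1 was 0.77 (adjusted p = 0.0499). It was 0.0615 with the replicate block, 0.0551 with TMM scaling of the libraries, and 0.0558 to 0.114 in 14 of the 16 fits without 1 library. Those fits left out any library but wild-type 0 h replicates 1 and 2.

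Of the 13 stomatal peptides and receptors tested, 3 rose and 1 fell, with a median change of 0.11. EPFL4 and EPFL5 did not pass the filter on low counts. EPF1, a peptide that acts on spacing between stomata, had 2.94 to 15.2 normalised counts at 12 h and 9.10 to 16 at 0 h (log2 -0.59, adjusted p = 0.37). EPFL9, the peptide stomagen that promotes stomata, had 14.7 to 22.3 at 12 h and 11.5 to 38.2 at 0 h (log2 -0.49, adjusted p = 0.36). EPFL6 stood at 0.02 (adjusted p = 0.98). The proteases SDD1 and ATSBT5.2 had changes of 0.21 and 0.18, and the co-receptors SERK1, SERK2 and BAK1 had -0.04, 0.11 and 0.10, none of which passed.

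Both division polarity genes that define the polar domain rose. BASL had 179, 213, 165 and 281 normalised counts at 12 h, against 33.5, 39.1, 60.8 and 51.0 at 0 h. POLAR had 509, 563, 413 and 582 at 12 h, against 169, 154, 199 and 146 at 0 h. In neither gene did the groups overlap. BASL rose 4.49-fold (log2 2.17, SE 0.19, adjusted p = 1.3e-05) and POLAR 3.08-fold (log2 1.62, SE 0.13, adjusted p = 7.7e-06). The line-by-time differences were 2.42 (SE 0.37, adjusted p = 0.0017) for BASL and 1.82 (SE 0.20, adjusted p = 4.7e-05) for POLAR.

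Of the 10 polarity genes tested 2 rose and 1 fell, with a median change of 0.10, and BSU1 did not pass the filter on low counts. The BRX family proteins, which join the polar domain, included the faller. BRX had 75.6, 93.1, 81.4 and 64.3 normalised counts at 12 h, against 124, 106, 106 and 117 at 0 h, and its groups did not overlap. It fell 1.44-fold (log2 -0.53, adjusted p = 0.032). BRXL2 had a change of 0.39 (adjusted p = 0.11), BRXL1 -0.45, BRXL3 0.11 and BRXL4 -0.24, and the phosphatases BSL1, BSL2 and BSL3 had 0.09, 0.06 and 0.16. None of these 7 passed. The call of BRX did not hold with the replicate block (adjusted p = 0.0579), without 0 h replicate 1, 3 or 4 (0.0868, 0.0613 and 0.0979) and without 12 h replicate 1 or 4 (0.0822 and 0.0932).

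In the MAP kinase cascade upstream of SPCH 1 of 8 genes rose and 2 fell. The kinase kinase MKK7 had 186, 112, 133 and 230 normalised counts at 12 h, against 92.2, 43.8, 71.5 and 58.2 at 0 h, and rose 2.46-fold (log2 1.30, adjusted p = 0.011). MKK9 had 1504, 1144, 991 and 1242 at 12 h, against 3833, 3178, 3869 and 2364 at 0 h, and fell 2.69-fold (log2 -1.43, adjusted p = 0.0006). Neither gene's groups overlapped, and both moved in the same direction in wild type (1.10, adjusted p = 0.011, for MKK7 and -0.90, adjusted p = 0.0024, for MKK9). MPK3, named after its values were seen, fell by 0.36 (adjusted p = 0.04). Its call was lost with the replicate block (0.0503), without 0 h replicate 1, 2 or 3 (adjusted p = 0.103, 0.112 and 0.0874) and without 12 h replicate 2 or 4 (0.0949 and 0.0636).

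Of 11 genes of mature guard cells 1 rose and none fell, with a median change of 0.22. SLAC1, an anion channel that closes stomata, had 26.2, 23.5, 37.4 and 40.2 normalised counts at 12 h, against 7.34, 17.1, 20.3 and 24.6 at 0 h. Its groups overlapped through 12 h replicate 2 and 0 h replicate 4. The change was 0.92 (adjusted p = 0.045). The call did not hold with the replicate block (adjusted p = 0.0592), in DESeq2 (0.0646), without 0 h replicate 1, 3 or 4 (0.109, 0.0967 and 0.071) and without any 12 h replicate (0.0759 to 0.106). The summed level of the 11 genes was 17443 to 25208 at 12 h and 17531 to 22429 at 0 h, so the groups overlapped.

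**Figure D2:**
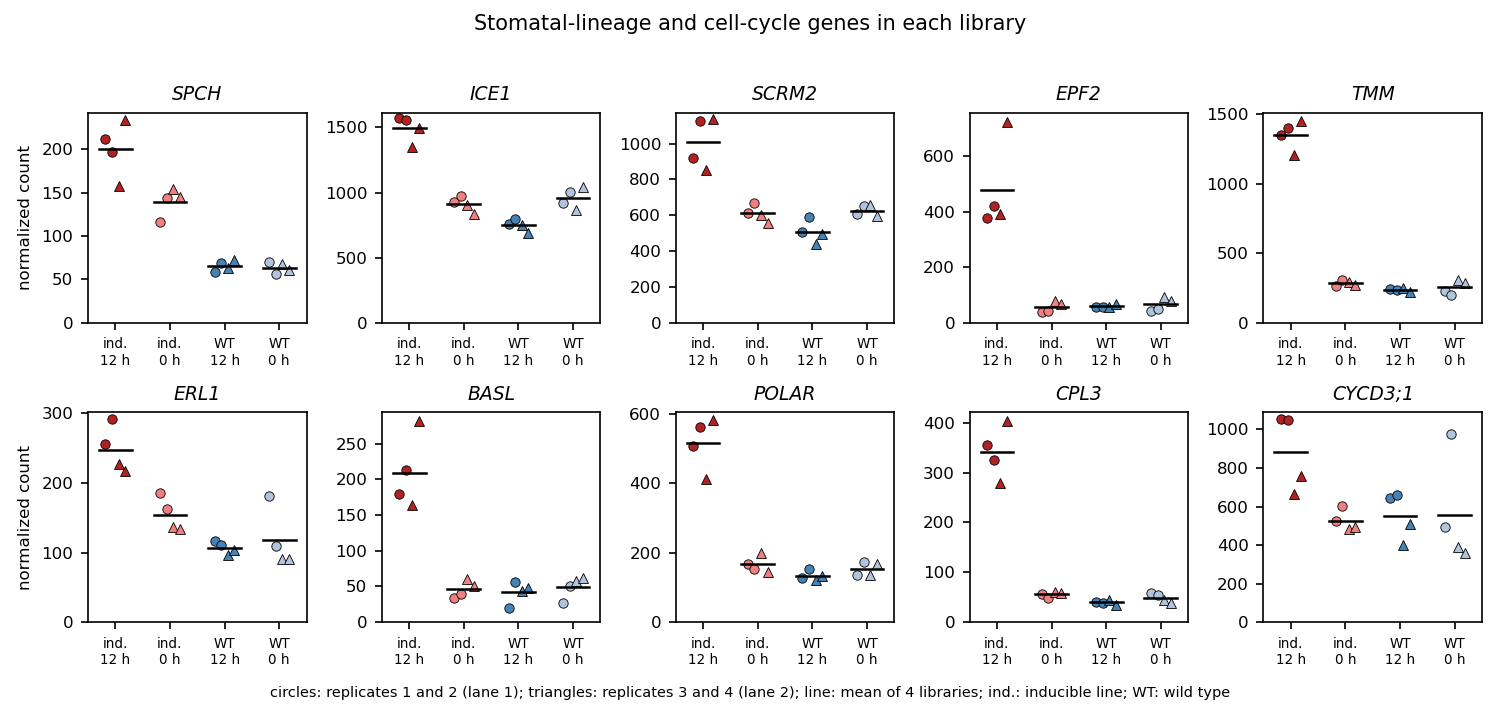
Normalised counts per library of 10 stomatal-lineage and cell-cycle genes (vertical, linear scale from 0) in 4 groups: inducible line at 12 h and at 0 h, wild type at 12 h and at 0 h; circles are lane 1, triangles lane 2 and bars group means. Every 12 h library of the inducible line was above every one of its 0 h libraries for these genes, from 1205 to 1450 against 265 to 311 for TMM to 158 to 233 against 116 to 154 for SPCH.

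CPL3 (AT4G01060), also called ETC3, a small MYB protein that represses trichome fate, rose. CPL3 had 356, 325, 279 and 403 normalised counts at 12 h, against 55.5, 48.6, 59.8 and 59.1 at 0 h. The lowest 12 h library was over 4 times the highest 0 h library, and the rise was 5.98-fold (log2 2.58, SE 0.14, adjusted p = 4.4e-07). In wild type the change was -0.29, and the line-by-time difference was 2.87 (SE 0.24, adjusted p = 2.6e-06).

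Of 11 trichome and epidermal patterning genes tested 4 fell and CPL3 alone rose, with a median change of -0.53. GL1, TRY, ETC1 and TCL1 did not pass the filter on low counts. SIM, a cell-cycle inhibitor of trichomes, had 99.8, 109, 163 and 144 normalised counts at 12 h, against 199, 236, 213 and 188 at 0 h. TTG2, a WRKY factor of trichomes and seed coats, had 32.0, 28.4, 36.4 and 23.2 at 12 h, against 45.1, 75.3, 73.6 and 52.8 at 0 h. The groups of neither gene overlapped. SIM fell 1.65-fold (log2 -0.72, adjusted p = 0.0066) and TTG2 2.00-fold (adjusted p = 0.012). GL3, a bHLH factor of trichome fate, fell by 1.23 (adjusted p = 0.034), and MYB23, named after its values were seen, by 1.02 (adjusted p = 0.047). The call of GL3 was lost without 0 h replicate 1, 3 or 4 (adjusted p = 0.0801, 0.111 and 0.0625) and without 12 h replicate 2 or 3 (0.0873 and 0.0935). That of MYB23 was lost with the replicate block (0.0662), without 0 h replicate 2, 3 or 4 (0.125, 0.116 and 0.121) and without 12 h replicate 2 or 3 (0.119 and 0.131). The list had 2 fallers without 0 h replicate 4 or without 12 h replicate 2 or 3.

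Other genes that rose beyond wild type are less well described. AT5G10890, annotated as a myosin heavy chain-like protein, had 173, 131, 109 and 163 normalised counts at 12 h, against 21.0, 31.4, 36.3 and 34.6 at 0 h (4.57-fold, log2 2.19, adjusted p = 3.1e-05). AT1G33930, a P-loop nucleoside triphosphate hydrolase, had 64.9, 77.4, 78.5 and 130 at 12 h, against 16.8, 15.2, 26.7 and 16.4 at 0 h (4.44-fold, log2 2.15, adjusted p = 6.5e-05). AT3G14760, an uncharacterized protein, had 243, 212, 232 and 296 at 12 h, against 84.9, 77.2, 89.6 and 84.6 at 0 h (2.88-fold, log2 1.53, adjusted p = 7.6e-06). None of these groups overlapped. The line-by-time differences were 2.13 (adjusted p = 0.0027), 1.64 (adjusted p = 0.012) and 1.99 (adjusted p = 1.5e-05) in the order of the genes above. The glycine-rich protein gene AT4G29020 rose 2.40-fold in the line and fell in wild type (log2 1.27, adjusted p = 0.00096, and -0.73, adjusted p = 0.025), with a difference of 2.00 (adjusted p = 0.0017). AT4G30230, an uncharacterized protein, rose 2.59-fold (log2 1.37, adjusted p = 0.0028) with a difference of 2.07 (adjusted p = 0.022), a call that was lost without 0 h replicate 4 of the line (adjusted p = 0.0518).

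Some cell-cycle genes rose, by modest amounts, and most did not pass the test. Of 28 mitotic genes 6 rose and none fell, against 5.66% and 7.97% of all genes tested. A change above 0 was found in 24 of the 28, against 10512 of all 20250 genes tested, and the median was 0.31. CYCB1;1, a B-type cyclin of the entry into mitosis, had 214, 198, 179 and 232 normalised counts at 12 h, against 129, 122, 155 and 129 at 0 h. Its groups did not overlap, the rise was 1.53-fold (log2 0.62, SE 0.12, adjusted p = 0.0056), and the line-by-time difference was 1.05 (SE 0.21, adjusted p = 0.012). CYCB1;2 rose 1.44-fold (adjusted p = 0.0043), the cytokinesis kinesin HIK 1.34-fold (adjusted p = 0.0029) and the spindle protein TPX2 1.48-fold (adjusted p = 0.017). The call of TPX2 was lost without 12 h replicate 2 (adjusted p = 0.0563). The list had 10 risers without 12 h replicate 3 and 4 to 8 without the other libraries.

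Of 21 DNA replication genes 7 rose and none fell, with a median change of 0.25. The smallest adjusted p was that of FAS1, a subunit of the chromatin assembly factor that loads histones on new DNA. It had 473, 460, 516 and 545 normalised counts at 12 h, against 370, 381, 429 and 396 at 0 h, with no overlap (1.26-fold, log2 0.34, adjusted p = 0.011). The list had 4 risers without 0 h replicate 1 or 2 or without 12 h replicate 4, and 3 without 0 h replicate 4 or without 12 h replicate 1 or 2.

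Among 17 genes of D-type cyclins and cyclin-dependent kinase inhibitors 2 rose and 1 fell, with a median change of -0.01. CYCD3;1, a D-type cyclin of proliferating cells, had 1055, 1047, 666 and 756 normalised counts at 12 h, against 525, 600, 485 and 495 at 0 h. The libraries of lane 1 were higher than those of lane 2 at 12 h, and the groups did not overlap (1.65-fold, log2 0.72, SE 0.09, adjusted p = 0.00028). CYCD3;2 had 853, 1017, 854 and 940 at 12 h, against 678, 584, 685 and 760 at 0 h (1.36-fold, adjusted p = 0.0077). Its line-by-time difference was 0.58 (adjusted p = 0.032), which was lost in 8 of 16 fits without 1 library (adjusted p = 0.0575 to 0.089), namely without 0 h replicate 2 or 3 or 12 h replicate 2 or 4 of the line, wild-type 0 h replicate 4, or wild-type 12 h replicate 1, 2 or 4. The kinase inhibitor AT2G32710 fell 1.35-fold (log2 -0.43, adjusted p = 0.0056).

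Of 10 ribosome biogenesis genes none passed the test in the line, where the changes ran from -0.15 to 0.20, while 7 fell in wild type. FIB2, a fibrillarin of the nucleolus, had 1917, 2134, 2013 and 2591 normalised counts at 12 h in the line, against 1957, 1637, 2041 and 2048 at 0 h. In wild type it had 1427, 1187, 1659 and 1672 at 12 h, against 1915, 2500, 2515 and 2911 at 0 h. The groups overlapped in the line (log2 0.17, adjusted p = 0.26) and not in wild type (-0.72, adjusted p = 0.00025), and the line-by-time difference was 0.89 (SE 0.15, adjusted p = 0.0036). NUC-L1 and CBF5, also nucleolar and named after their values were seen, had differences of 0.72 (adjusted p = 0.027) and 0.69 (adjusted p = 0.045). That of NUC-L1 was lost in 8 of 16 fits without 1 library (adjusted p = 0.0505 to 0.0779) and that of CBF5 in 13 (0.0525 to 0.108). NUC-L1 lost it without 0 h replicate 2, 3 or 4 or 12 h replicate 2 or 4 of the line, wild-type 0 h replicate 4, or wild-type 12 h replicate 2 or 4. CBF5 lost it with the replicate block (0.0651) and kept it only without 0 h replicate 1 of the line, wild-type 0 h replicate 1 or wild-type 12 h replicate 1.

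More genes of the epidermis and cuticle fell than rose. Of 22 tested 13 fell and 1 rose, with a median change of -0.45. CER1, an enzyme of alkane synthesis for cuticular wax, had 95.9, 53.9, 40.2 and 75.9 normalised counts at 12 h, against 282, 388, 206 and 262 at 0 h. CER4, which makes the primary alcohols of wax, had 136, 94.1, 107 and 98.3 at 12 h, against 317, 287, 164 and 300 at 0 h. In both genes replicate 3 was the lowest 0 h library and was still above every 12 h library. CER1 fell 4.34-fold (log2 -2.12, SE 0.23, adjusted p = 0.00025) and CER4 2.39-fold (log2 -1.26, SE 0.19, adjusted p = 0.001). The line-by-time differences were -1.90 (SE 0.35, adjusted p = 0.0076) for CER1 and -1.35 (SE 0.26, adjusted p = 0.0084) for CER4.

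Several further cuticle genes fell, 1 of them with a difference between the lines. CER2, which acts in the elongation of wax precursors, fell 1.77-fold (adjusted p = 4.5e-05), and DCR, an acyltransferase of cutin, 2.29-fold (adjusted p = 3.3e-05). Both also fell in wild type (-0.53, adjusted p = 0.014, and -0.54, adjusted p = 0.0079). The wax regulators MYB96 and MYB30 fell by 0.73 each (adjusted p = 0.00028 and 0.00043), and were named after their values were seen. The lipid transfer protein LTP1 fell by 0.90 (adjusted p = 8.9e-05), with a line-by-time difference of -0.83 (adjusted p = 0.027). That difference was lost without 0 h replicate 3 or 4 or 12 h replicate 2 of the line, or wild-type 12 h replicate 2 or 4 (adjusted p = 0.0555 to 0.0735). ATML1, the homeodomain factor of epidermal identity whose promoter drives the transgene, had 1064, 998, 767 and 864 normalised counts at 12 h, against 1236, 1470, 1134 and 1150 at 0 h. Its groups did not overlap, and it fell 1.35-fold (log2 -0.44, adjusted p = 0.0031). The summed level of the epidermis list was 29495 to 38101 at 12 h and 39554 to 46769 at 0 h.

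AT1G06100, a member of the fatty acid desaturase family, had the lowest line-by-time difference of the genes named. It had 0.969, 0, 0 and 0.893 normalised counts at 12 h, against 43.0, 41.9, 29.9 and 48.2 at 0 h. These are 2 reads over the 12 h libraries and 166 over the 0 h libraries, a ratio of 0.0115 with a 95% counting interval of 0.00139 to 0.0424. The interval covers counting error only. Wild type had 23.5 to 44.2 at 12 h and 53.1 to 71.6 at 0 h, and the adjusted p of the difference was 3.4e-05.

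Most triterpene genes of roots fell. Thalianol and marneral are triterpenes whose synthesis genes sit in clusters on the chromosome. Of 9 such genes 8 fell, with a median change of -1.88, and all 8 had a line-by-time difference between -1.78 and -2.31. MRN1, marneral synthase, had 678, 429, 242 and 275 normalised counts at 12 h, against 2755, 2532, 1144 and 2587 at 0 h. Its groups did not overlap, and replicate 3 was lowest at both times. MRN1 fell 5.70-fold (log2 -2.51, SE 0.29, adjusted p = 0.0027), with a difference of -2.28 (SE 0.37, adjusted p = 0.0053). Its cluster partners CYP71A16 and CYP705A12 fell 4.45-fold and 3.73-fold (adjusted p = 0.00015 and 0.00079).

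The thalianol genes AT5G47980, CYP705A5, CYP708A2 and THAS1 are neighbours from 19428888 to 19461706 on chromosome 5 in TAIR10.1. THAS1, thalianol synthase, had 1006, 436, 322 and 422 normalised counts at 12 h, against 1937, 1680, 1112 and 1922 at 0 h. CYP708A2, which acts on thalianol, had 981, 463, 436 and 414 at 12 h, against 1765, 1527, 1198 and 1822 at 0 h. In both genes the highest 12 h library was replicate 1, below every 0 h library. THAS1 fell 3.28-fold (log2 -1.71, adjusted p = 0.021), CYP708A2 2.91-fold (adjusted p = 0.013), the acyltransferase AT5G47980 3.68-fold (adjusted p = 0.023) and CYP705A5 2.74-fold (adjusted p = 0.037). SQP2, a squalene monooxygenase outside the cluster, fell 4.25-fold (adjusted p = 5e-05). The call of THAS1 was lost without 0 h replicate 1 or 12 h replicate 3 or 4 (adjusted p = 0.0634, 0.062 and 0.0604). That of AT5G47980 was lost with the replicate block (0.0585), without 0 h replicate 1 or 2 (0.0675 and 0.0592) and without 12 h replicate 2, 3 or 4 (0.0606, 0.0557 and 0.0706). That of CYP705A5 was lost in edgeR (0.0518) and without any library but 12 h replicate 1 (0.0569 to 0.103). The list had 5 fallers without 0 h replicate 1 or without 12 h replicate 3 or 4.

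ER bodies are compartments of Brassicaceae roots and seedlings that store beta-glucosidases, and nitrile specifier proteins act on the breakdown of glucosinolates. Of 9 genes of this kind 7 fell and none rose, with a median change of -0.87. PYK10, the main beta-glucosidase of ER bodies, had 59202, 39855, 55675 and 53849 normalised counts at 12 h, against 79309, 84810, 74239 and 97350 at 0 h. PBP1, a lectin that binds PYK10, had 20040, 13557, 15470 and 17271 at 12 h, against 30880, 32604, 30471 and 31483 at 0 h. The groups of both genes were apart, with 12 h replicate 2 the lowest library in each. PYK10 fell 1.62-fold (adjusted p = 0.0037) and PBP1 1.91-fold (log2 -0.93, SE 0.11, adjusted p = 0.00017).

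The regulator of ER bodies NAI1, a bHLH factor, fell 1.95-fold (adjusted p = 0.012) with groups that overlapped through 12 h replicate 1, and it rose in wild type (log2 0.56, adjusted p = 0.025). NAI2, which shapes ER bodies, fell 1.82-fold (adjusted p = 0.0004), the beta-glucosidase BGLU22 2.49-fold (adjusted p = 0.00079), NSP1 1.87-fold (adjusted p = 0.00037) and NSP4 1.71-fold (adjusted p = 0.00067). The line-by-time difference passed for PBP1 (-0.88), NSP1 (-1.04), NSP4 (-0.90), NAI1 (-1.53), BGLU22 (-1.68) and PYK10 (-0.94). That of PYK10 (adjusted p = 0.038) was lost in 12 of 16 fits without 1 library (adjusted p = 0.0518 to 0.105). It was kept without 0 h replicate 3 or 12 h replicate 1 of the line, or without wild-type 0 h replicate 1 or 12 h replicate 1.

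Triterpene and ER-body genes are active in roots, so the markers of root cell types are given beside them. Of 8 root hair genes 2 fell and none rose, with a median change of -0.32. The summed root hair level was 933 to 1780 at 12 h and 1506 to 2317 at 0 h. Of 11 genes of the endodermis and suberin 2 fell and none rose, with a median of -0.20, and their sums overlapped at 1861 to 3323 at 12 h and 2015 to 3386 at 0 h. In wild type the median change was 0.23 over the root hair list and 0.28 over the endodermis list. The median line-by-time difference was -0.72 and -0.43 in that order, and neither was tested. A lower difference passed for no root hair gene and for 2 endodermis genes, against 1.9% of all genes. Each of these counts was 0 to 3 in fits without 1 library. Named after their values were seen, EXPA18 (-0.79, adjusted p = 0.034), PRP3 (-0.67, adjusted p = 0.038) and CASP2, a protein of the Casparian strip (-0.74, adjusted p = 0.041), fell. The calls of EXPA18, PRP3 and CASP2 were each lost in 6 of 8 fits without 1 library (adjusted p = 0.0696 to 0.0976, 0.0559 to 0.105 and 0.0661 to 0.133). EXPA18 kept its call without 0 h replicate 2 or 12 h replicate 1, PRP3 without replicate 3 of either group, and CASP2 without 12 h replicate 1 or 3. With the replicate block the adjusted p was 0.0804 for PRP3 and 0.0584 for CASP2. The part of a changed share of root tissue in the triterpene and ER-body results was not tested.

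Further single genes fell in the line below their change in wild type. BHLH101, a regulator of the iron deficiency response, had 129, 155, 95.8 and 90.2 normalised counts at 12 h, against 300, 266, 297 and 357 at 0 h. It fell 2.63-fold (log2 -1.39, adjusted p = 0.00014), with a line-by-time difference of -1.81 (adjusted p = 0.0019), and its relative BHLH100 fell 1.55-fold (adjusted p = 0.0098). These were the 2 fallers among 16 iron genes, of which none rose. The list had 4 fallers without 0 h replicate 2 and 5 without 12 h replicate 1. SULTR1;2, the main sulfate uptake transporter of roots, had 1174, 737, 977 and 975 at 12 h, against 1475, 1527, 1348 and 1859 at 0 h. It fell 1.62-fold (log2 -0.69, adjusted p = 0.01) and rose in wild type (0.73, adjusted p = 0.011), with a difference of -1.42 (SE 0.25, adjusted p = 0.0049).

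Sulfur limitation genes passed in the line about as often as all genes tested. Of 16 tested 1 rose and 2 fell there, against 5.66% and 7.97% of all genes. In wild type 6 rose, against 6.68% of all genes. LSU2 rose in both lines (0.62, adjusted p = 0.009, in the inducible line and 1.15, adjusted p = 6.5e-05, in wild type), and AT1G04770 fell by 0.61 in the line (adjusted p = 0.0021). The list had 2 risers without 0 h replicate 3 and 4 without 12 h replicate 3. The expansin EXPA5, which loosens cell walls, fell 2.43-fold (log2 -1.28, adjusted p = 0.00012) with a difference of -1.34 (adjusted p = 0.006). ARR16, a type-A response regulator of cytokinin signalling, rose 1.82-fold (log2 0.86, adjusted p = 0.00081) and fell in wild type (-0.57, adjusted p = 0.029), with a difference of 1.43 (adjusted p = 0.0032).

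Other genes with strongly negative line-by-time differences had low counts. AT5G04120, of the phosphoglycerate mutase family, had 23.3, 31.4, 11.5 and 17.0 normalised counts at 12 h, against 127, 69.5, 56.6 and 114 at 0 h (4.29-fold lower, difference -2.74, adjusted p = 0.0029). CPK22, a calcium-dependent kinase-like gene, had 14.5, 12.7, 7.66 and 22.3 at 12 h, against 90.1, 38.1, 79.0 and 131 at 0 h (5.43-fold lower, difference -2.45, adjusted p = 0.018). AT5G14650, a pectin lyase-like gene, fell 2.46-fold in the line (adjusted p = 0.0041) and rose in wild type (1.12, adjusted p = 0.015), with a difference of -2.42 (adjusted p = 0.0037). The groups of AT5G04120 and CPK22 did not overlap, and those of AT5G14650 did.

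Class II trehalose-phosphate synthase genes, whose transcripts follow the sugar state of the plant, fell in 4 of 7 cases and rose in none. TPS8 had 802, 739, 865 and 887 normalised counts at 12 h, against 2135, 2969, 2297 and 2081 at 0 h. TPS11 had 571, 520, 550 and 440 at 12 h, against 1541, 1874, 1079 and 1069 at 0 h. Neither overlapped between the groups. TPS8 fell 2.85-fold (adjusted p = 6.6e-06), TPS11 2.61-fold (adjusted p = 2.2e-05), TPS9 1.80-fold (adjusted p = 0.00035) and TPS10 1.42-fold (adjusted p = 0.0044). The line-by-time difference was -0.97 for TPS11 (adjusted p = 0.012) and -0.79 for TPS8 (adjusted p = 0.038). That of TPS8 was lost in 9 of 16 fits (adjusted p = 0.0509 to 0.0992), without 0 h replicate 2, 3 or 4 or 12 h replicate 1, 2 or 4 of the line, wild-type 0 h replicate 3, or wild-type 12 h replicate 2 or 3.

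Some of the largest falls were of genes that respond to low oxygen, and these fell in wild type too. Of 41 genes of this response 15 fell and 4 rose, with a median change of -0.26, and in wild type 15 fell and 1 rose. HRA1, a repressor within the hypoxia response, had 149, 153, 233 and 123 normalised counts at 12 h, against 1523, 1629, 2290 and 1817 at 0 h. The groups were far apart, with replicate 3 the highest at both times. HRA1 fell 11.1-fold (log2 -3.48, SE 0.18, adjusted p = 5.9e-06) and fell by 3.49 in wild type (adjusted p = 2.2e-07). LBD41, another transcription factor of this response, fell 7.46-fold (adjusted p = 0.0041), the calmodulin-like CML38 7.10-fold (adjusted p = 5e-07) and SRO5 6.90-fold (adjusted p = 2.2e-05). AT4G10265 and AT4G10270, neighbouring genes of the wound-responsive family, fell 28.4-fold and 6.57-fold (adjusted p = 0.0038 and 0.0069). AT4G10265 had 26.2, 17.6, 57.5 and 8.93 at 12 h, against 510, 542, 1114 and 612 at 0 h. ACR7, an ACT-domain protein, fell 2.30-fold (adjusted p = 2e-05) and had a line-by-time difference (-1.0, adjusted p = 0.0072).

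The 4 low-oxygen genes that rose were PDC2, ETR2, AT3G29970 and SUS1, named after their values were seen, with changes of 0.55, 0.46, 1.96 and 0.60. Their count rested on single libraries: it was 1 without 0 h replicate 1, 2 or 3 or without 12 h replicate 1 or 2, 2 without 12 h replicate 3, 0 without 0 h replicate 4 and 9 without 12 h replicate 4.

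Most genes that respond within minutes to touch, wounding and other stimuli fell. Of 14 tested 11 fell and none rose, with a median change of -1.07, and in wild type 10 fell. HSPRO2, which takes part in basal immunity, had 480, 398, 498 and 453 normalised counts at 12 h, against 4074, 4949, 3937 and 3492 at 0 h. Each group was tight and the fall was 8.94-fold (log2 -3.16, SE 0.11, adjusted p = 1e-08). The zinc finger genes SZF1 and CZF1 fell 5.28-fold and 2.45-fold (adjusted p = 2.5e-06 and 1.5e-06), and the calmodulin-like TCH3 1.68-fold (adjusted p = 0.00015). OXS3, a gene of oxidative and heavy metal stress tolerance, had 125, 113, 140 and 109 at 12 h, against 836, 1135, 1034 and 917 at 0 h (7.99-fold lower, adjusted p = 1.7e-08), and fell by 2.46 in wild type (adjusted p = 1.7e-07).

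Defence regulators of the WRKY family fell in 11 of 15 cases and rose in none, with a median change of -0.59, while in wild type 4 fell and 1 rose. WRKY33, needed for camalexin and resistance to fungi, had 1136, 872, 969 and 916 normalised counts at 12 h, against 2384, 2756, 2464 and 2312 at 0 h (2.55-fold lower, adjusted p = 2.3e-06). WRKY40 and WRKY18, which act together in basal defence, fell 3.07-fold and 1.62-fold (adjusted p = 8.3e-05 and 0.00016). The groups of these 3 genes did not overlap, and all 3 also fell in wild type (-0.73, -0.79 and -0.50).

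Among 21 genes of ethylene synthesis, receptors and response factors 4 rose and 7 fell. The ERF transcription factors ERF105, ERF104 and ERF6, all of the group that responds to stress, fell 6.41-fold, 3.91-fold and 3.68-fold (adjusted p = 6.1e-06, 1.9e-05 and 0.00027). ERF105 had 32.0, 23.5, 40.2 and 42.9 normalised counts at 12 h, against 195, 160, 396 and 197 at 0 h. The 3 genes fell in wild type as well (log2 -2.87, -2.36 and -1.67). The receptor gene ERS1 rose 1.45-fold (adjusted p = 0.0079) in the line and by 0.42 in wild type (adjusted p = 0.031). Also among the risers, and named after their values were seen, were ETR2 and ACO1, an enzyme of ethylene synthesis (1.30, adjusted p = 0.016). The count of risers was 1 without 0 h replicate 2 or 12 h replicate 1, 2 without 0 h replicate 1, 3 or 4 or 12 h replicate 3, and 7 without 12 h replicate 4.

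Genes of darkness and sugar starvation fell in 9 of 24 cases and 1 rose, with a median change of -0.40. AT2G20670, a DUF506 gene of this response, had 889, 753, 957 and 636 normalised counts at 12 h, against 6998, 10039, 6016 and 5929 at 0 h (8.85-fold lower, log2 -3.14, adjusted p = 6.6e-06). EXL1 fell 4.20-fold (adjusted p = 0.0001) and BZIP63, a transcription factor of the energy response, 1.69-fold (adjusted p = 0.00085). DIN2, a beta-glucosidase, went the other way, with 103, 64.7, 85.2 and 38.4 at 12 h, against 24.1, 22.9, 14.9 and 28.2 at 0 h (3.02-fold higher, adjusted p = 0.0032). AT2G20670, EXL1 and DIN2 changed in the same direction in wild type (-1.99, -1.37 and 1.49). The list as a whole did not: in wild type 4 of 24 fell and 3 rose, with a median change of 0.01. A lower change in the line than in wild type passed for 2 members, and for 0 to 3 in fits without 1 library. In the line the list had 5 fallers without 12 h replicate 2 or 4.

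Most flavonoid genes fell in the line. Of 18 genes of phenylpropanoid and flavonoid synthesis 14 fell and none rose, with a median change of -0.74, and in wild type 10 fell and 1 rose. TT5, chalcone isomerase, had 428, 404, 434 and 491 normalised counts at 12 h, against 754, 855, 891 and 784 at 0 h (1.87-fold lower, adjusted p = 2.3e-05). The glycosyltransferases UGT78D1 and UF3GT fell 2.31-fold and 3.65-fold (adjusted p = 8.9e-05 and 0.00047), and the ligase 4CL3 1.94-fold (adjusted p = 0.00025). The groups of these 4 genes did not overlap.

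Of 12 genes of nitrate uptake and response 6 fell and none rose in the line, and 8 fell in wild type. HRS1, a nitrate-responsive repressor in roots, fell 1.64-fold (adjusted p = 9.7e-05), G6PD3, an enzyme that supplies reducing power, 1.56-fold (adjusted p = 0.00013), LBD38, a repressor of nitrate genes, 1.58-fold (adjusted p = 0.00017) and BT2 2.59-fold (adjusted p = 0.00028). BT2 had 2136, 2487, 1966 and 2591 normalised counts at 12 h, against 4994, 7968, 5959 and 5180 at 0 h.

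**Figure D3:**
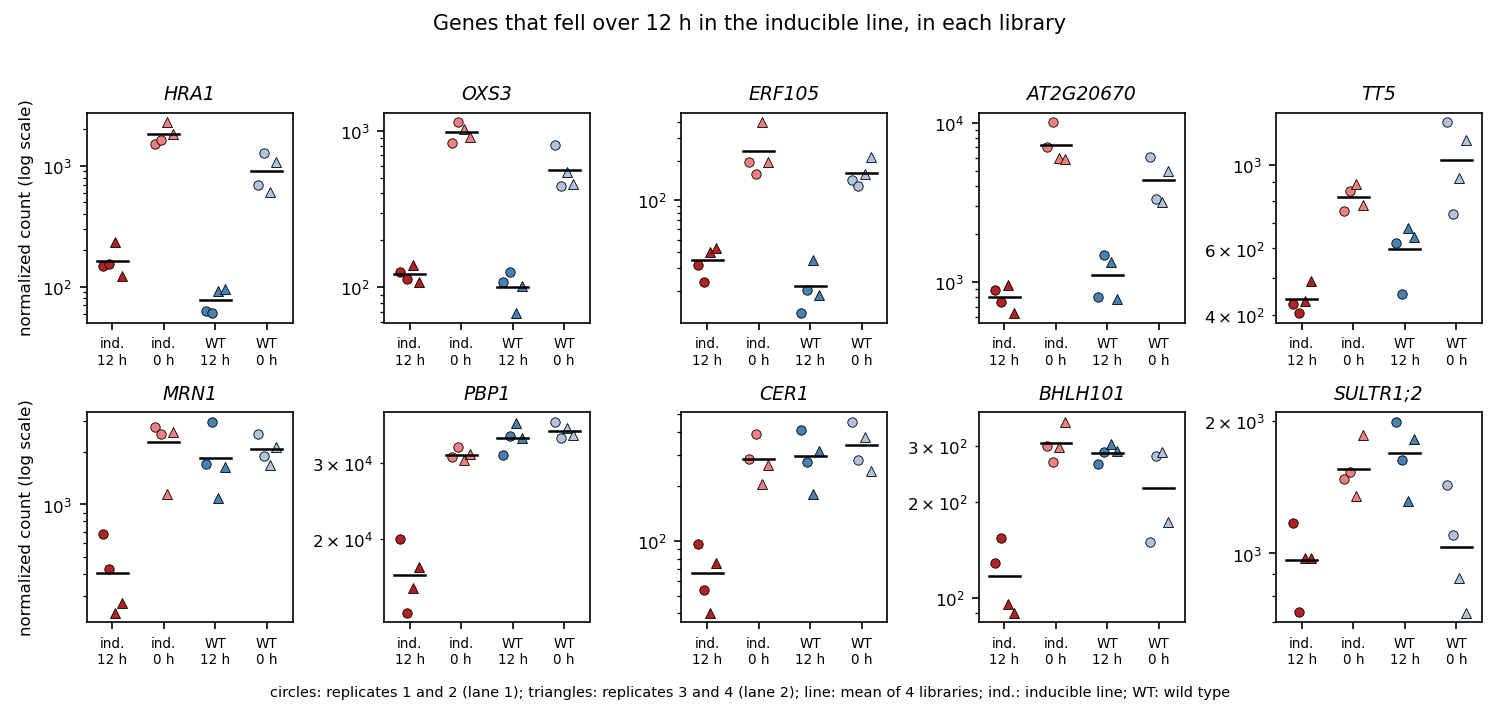
Normalised counts per library (vertical, log scale) of 10 genes that fell over 12 h in the inducible line, in the 4 groups; circles are lane 1, triangles lane 2 and bars group means. In the upper row, HRA1 to TT5, wild type had log2 changes of -3.49 to -0.77; in the lower row, MRN1 to SULTR1;2, each gene had a line-by-time difference.

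Among genes that rose in both lines the largest changes were of defence-related and uncharacterised genes. PR5, a pathogenesis-related thaumatin-like protein, had 1548, 789, 1047 and 2344 normalised counts at 12 h, against 228, 196, 401 and 256 at 0 h. Its groups did not overlap, and the rise was 5.04-fold in the line (log2 2.33, SE 0.34, adjusted p = 0.0078) and 2.85 on the log2 scale in wild type (adjusted p = 2.2e-05). SBT3.3, a subtilase that primes immunity, rose 4.10-fold (log2 2.04, adjusted p = 2.8e-05) in the line and by 3.22 in wild type (adjusted p = 1.1e-07). Their difference of -1.18 did not pass (adjusted p = 0.052), and passed with the replicate block (0.0397) and without 0 h replicate 2 or 12 h replicate 1 of the line (0.047 and 0.0445) or wild-type 0 h replicate 1 or 4 (0.0398 and 0.023).

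AT4G12580, an uncharacterized protein, had the largest rise of the genes named, with 26.2, 44.1, 96.7 and 39.3 normalised counts at 12 h, against 3.14, 2.86, 5.34 and 7.28 at 0 h (8.71-fold, log2 3.12, adjusted p = 6.6e-05). AT3G22060, of the receptor-like kinase family, rose 3.77-fold (adjusted p = 6.1e-06), AT2G04135 5.24-fold (adjusted p = 8.8e-05) and GAMT2, which methylates gibberellins, 3.99-fold (adjusted p = 7.2e-05). These 4 genes also rose in wild type, by 2.78, 1.87, 1.67 and 1.41. PAO, of chlorophyll breakdown, rose 1.67-fold (adjusted p = 0.00015), the phloem sucrose transporter SUC2 1.62-fold (adjusted p = 0.0024) and the meristem receptor CLV1 1.26-fold (adjusted p = 0.0077). They rose in wild type by 0.86, 0.59 and 0.46.

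The other salicylate and immune genes did not follow PR5. Of 18 tested 2 rose, PR5 and SBT3.3, and 4 fell in the line, while 4 rose and none fell in wild type. The fallers, named after their values were seen, were BAP1 (-1.0, adjusted p = 0.0064), FMO1 (-1.03, adjusted p = 0.011), EDS5 (-0.47, adjusted p = 0.012) and ALD1 (-1.76, adjusted p = 0.013, and 0.0505 without 12 h replicate 1). FMO1 and ALD1 are enzymes of systemic acquired resistance. Of 23 jasmonate genes 4 fell and none rose. JAZ3, a repressor of jasmonate signalling, had 408, 317, 354 and 322 normalised counts at 12 h, against 608, 656, 700 and 609 at 0 h (1.84-fold lower, adjusted p = 8.9e-05), with a line-by-time difference of -0.99 (adjusted p = 0.011). The others, named after their values were seen, were JAZ1 (-0.67, adjusted p = 0.0056), JAZ2 (-0.40, adjusted p = 0.013) and MYC2 (-0.82, adjusted p = 0.024). The call of MYC2 was lost with the replicate block (0.0689) and without 0 h replicate 1 or 2 or 12 h replicate 2 (adjusted p = 0.0603, 0.0642 and 0.0739).

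Heat shock and chaperone genes rose in 5 of 11 cases and 1 fell. HSP70 had 3092, 2399, 2729 and 2319 normalised counts at 12 h, against 1327, 1565, 1221 and 1037 at 0 h, with no overlap (2.05-fold, log2 1.04, adjusted p = 5.8e-05). HSP90.1 rose 1.79-fold (adjusted p = 0.00085), the immunophilin ROF2 1.75-fold (adjusted p = 0.005) and the small heat shock protein HSP17.6II 4.45-fold (adjusted p = 0.0056). HSP101, named after its values were seen, had a change of 0.32 (adjusted p = 0.035), and its call was lost in 6 of 8 fits without 1 library (adjusted p = 0.0606 to 0.111), being kept without 0 h replicate 2 or 12 h replicate 4, and with the replicate block (0.0519). The heat factor HSFA7A fell 1.89-fold (adjusted p = 0.00066). None of these genes passed for a line-by-time difference.

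Part of the clock genes passed the test. Among 11 genes of the CCA1, LHY and REVEILLE kind, which peak around dawn, 7 fell and none rose, with a median change of -0.40. Among 12 genes of the PRR and evening kind 5 rose and none fell, with a median of 0.33. The labels give no time of day, and elapsed time and the steroid cannot be told apart in these values.

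The promoters of 3 fallers are shown because they hold the G-box CACGTG, a form of the E-box that light and clock factors bind. As above, each is the 250 bases upstream of the gene start in RefSeq's annotation of TAIR10.1 in the direction of transcription, with G-boxes in capitals; the motif reads the same on both strands. The intervals are chr1:37872-38121 on the minus strand for LHY, chr5:5692993-5693242 on the minus strand for RVE1 and chr3:3923265-3923514 on the plus strand for LNK3.
LHY: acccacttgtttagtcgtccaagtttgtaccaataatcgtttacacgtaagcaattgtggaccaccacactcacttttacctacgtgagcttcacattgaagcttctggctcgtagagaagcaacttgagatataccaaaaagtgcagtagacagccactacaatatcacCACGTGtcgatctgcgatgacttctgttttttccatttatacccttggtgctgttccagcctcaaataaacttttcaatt
RVE1: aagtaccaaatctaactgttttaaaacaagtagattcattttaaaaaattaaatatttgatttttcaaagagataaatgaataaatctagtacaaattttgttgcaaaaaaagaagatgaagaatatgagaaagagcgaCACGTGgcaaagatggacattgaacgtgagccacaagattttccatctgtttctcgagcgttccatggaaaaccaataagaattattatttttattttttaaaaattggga
LNK3: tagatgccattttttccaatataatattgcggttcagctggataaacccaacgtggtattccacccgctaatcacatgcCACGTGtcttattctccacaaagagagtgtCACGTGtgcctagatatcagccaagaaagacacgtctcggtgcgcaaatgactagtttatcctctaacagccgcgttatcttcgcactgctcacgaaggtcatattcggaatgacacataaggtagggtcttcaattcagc
LNK3 held 2 G-boxes and the others 1. Of the 7 fallers 5 held a G-box in this window (LHY, RVE1, LNK3, RVE2 and CCA1), or 71.4%, against 45.5% of the 11 genes of the list and 6.58% of all 26711 windows. The list was compiled from genes known to cycle together, so this share describes the list and was not tested.

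RVE1, a MYB factor that links the clock to auxin, had 204, 202, 126 and 194 normalised counts at 12 h, against 471, 593, 475 and 422 at 0 h. LHY, a core repressor of the clock, had 2005, 2040, 1818 and 1649 at 12 h, against 2934, 2765, 2240 and 2585 at 0 h. LNK3 had 261, 276, 286 and 218 at 12 h, against 429, 430, 443 and 390 at 0 h. All 3 were without overlap, and the falls were 2.72-fold (adjusted p = 2.3e-05), 1.40-fold (adjusted p = 0.0009) and 1.63-fold (adjusted p = 0.00059) in that order. RVE4 fell 1.32-fold (adjusted p = 0.0026), and RVE2 and LNK2, named after their values were seen, by 0.50 and 0.36 (adjusted p = 0.0036 and 0.011). CCA1, the partner of LHY and also named after its values were seen, fell by 0.27 (adjusted p = 0.036). Its call did not hold with the replicate block (adjusted p = 0.0615), without 0 h replicate 1, 2 or 4 (0.0856, 0.0908 and 0.0968) and without 12 h replicate 1, 2 or 4 (0.116, 0.0573 and 0.0916).

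GI, an evening gene that times flowering, had 904, 841, 1062 and 968 normalised counts at 12 h, against 604, 701, 717 and 681 at 0 h (1.39-fold higher, adjusted p = 0.0015), and rose in wild type by 0.56 (adjusted p = 0.00071). BOA and ELF4, of the evening complex and its relatives, rose 1.69-fold and 1.50-fold (adjusted p = 0.0041 and 0.0029), and PRR3 1.37-fold (adjusted p = 0.0082). The groups of GI and BOA did not overlap, and those of ELF4 and PRR3 did. FKF1, named after its values were seen, had a change of 0.61 (adjusted p = 0.044), which was lost in 6 of 8 fits without 1 library (adjusted p = 0.0608 to 0.13) and with the replicate block (0.0712), and kept without replicate 2 of either group. No gene of either clock list passed for a line-by-time difference. In wild type 2 of the 11 dawn genes fell and 1 rose, with a median change of -0.06. Of the 12 evening genes 2 rose and none fell there, with a median of 0.20. The median line-by-time difference was -0.37 over the dawn list and 0.07 over the evening list, and neither was tested.

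PIF4 and PIF5, bHLH factors of growth in shade and warmth, fell. PIF4 had 218, 252, 186 and 199 normalised counts at 12 h, against 327, 332, 319 and 287 at 0 h. No 12 h library reached a 0 h library, and PIF4 fell 1.48-fold (log2 -0.57, SE 0.10, adjusted p = 0.0019), with an exact permutation p of 0.0286, the smallest possible. Without 0 h replicate 1, 2 or 3 the permutation p was 0.0571. In wild type PIF4 had 252 to 510 at 12 h and 210 to 311 at 0 h, and the line-by-time difference was -0.93 (adjusted p = 0.048). That call did not hold with the replicate block (adjusted p = 0.0591) and in 12 of 16 fits without 1 library (0.0595 to 0.102). It was kept without wild-type 0 h replicate 1 or 3 or wild-type 12 h replicate 1 or 4.

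PIF5 had 598, 670, 805 and 682 normalised counts at 12 h, against 1035, 1310, 1155 and 1122 at 0 h (1.68-fold lower, adjusted p = 0.0003). PRE5, a small bHLH protein that promotes elongation, fell 1.93-fold (adjusted p = 0.0072). Of 12 genes of PIF factors, shade and warmth 5 fell and 2 rose. The risers, named after their values were seen, were PAR1 (0.68, adjusted p = 0.014) and PIF3 (0.37, adjusted p = 0.021). The list had 3 fallers without 0 h replicate 3 or 4. It had 1 riser without 0 h replicate 2 or 12 h replicate 1, 2 or 3, and none without 0 h replicate 4.

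Genes of auxin response and cell wall loosening fell and none rose: 12 of 24 auxin genes, with a median change of -0.40, and 8 of 21 XTH and expansin genes, also with a median of -0.40. Leaving out 1 library gave 8 to 11 fallers among the auxin genes. Among the XTH and expansin genes it gave 7 to 10 fallers and 0 to 1 risers. In wild type 3 of 27 auxin genes and 4 of 22 XTH and expansin genes fell and none rose. IAA16 and IAA17, repressors within auxin signalling, fell 1.46-fold and 1.63-fold (adjusted p = 0.00021 and 0.0019). SAUR68, a small auxin-induced gene, had 20.4, 14.7, 23.0 and 35.7 normalised counts at 12 h, against 38.8, 60.0, 89.6 and 115 at 0 h (3.05-fold lower, adjusted p = 0.00066). SAUR genes are close copies in tandem, and the sources used here do not say how reads shared between copies were counted. The expansins EXPA8, EXPA11 and EXPA3 fell 4.13-fold, 2.05-fold and 1.61-fold (adjusted p = 8.4e-05, 0.0063 and 0.00088) and fell in wild type as well (-1.56, -1.05 and -0.67). BEE2, a bHLH gene of brassinosteroid-induced growth, fell 1.94-fold (adjusted p = 2.6e-05).

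Of 15 light-harvesting and Rubisco genes 8 fell and none rose, with a median change of -0.42, against 1 that fell in wild type. LHCB2.1, of the light-harvesting complex of photosystem II, had 6685, 7524, 5522 and 5333 normalised counts at 12 h, against 11466, 12778, 9130 and 7875 at 0 h. The libraries of lane 1 were higher than those of lane 2 at both times. It fell 1.63-fold (adjusted p = 0.00015), its near copy LHCB2.2 1.57-fold (adjusted p = 0.0018), LHCB4.2 1.43-fold (adjusted p = 0.0075) and LHCB5 1.34-fold (adjusted p = 0.013). GUN5, a subunit of the chelatase of chlorophyll synthesis, and GAPC2, of glycolysis, were among the fallers with the most counts. They fell 1.53-fold and 1.31-fold (adjusted p = 0.0011 and 0.0098), and in wild type by 0.50 and 0.38. Of the abscisic acid genes, RD26 fell 1.75-fold (adjusted p = 0.0032) and ABI1, a phosphatase that restrains the hormone's signal, rose 1.28-fold (adjusted p = 0.0094).

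Neighbouring genes changed together at 7 places where 4 genes in a row passed in 1 direction, a description with no test. The thalianol cluster on chromosome 5 is one of them. On chromosome 3 from 5566083 to 5583258 NSP1, NSP4, PBP1 and the lectin gene JAL31 fell by 0.77 to 1.11. On chromosome 1 from 10302585 to 10308246, 4 SAUR genes, SAUR63 among them, had changes of -2.2 to -1.34. On chromosome 2 from 12628422 to 12634120 the glutathione transferases GSTU3, GSTU2 and GSTU1 and the small heat shock gene AT2G29500 had changes of 0.61 to 1.95. That run ended without each of the 8 libraries of the line, through a lost call of GSTU1 or AT2G29500, and the thalianol run ended in 7 of these 8 fits. GSTU1 lost its call without 0 h replicate 3 or 4 (adjusted p = 0.0555 and 0.0795) or 12 h replicate 1 or 4 (0.0756 and 0.0622). At 3 places, the NSP and SAUR runs among them, all 4 genes passed in every such fit, and at the other 4 places not in every one.

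**Figure D4:**
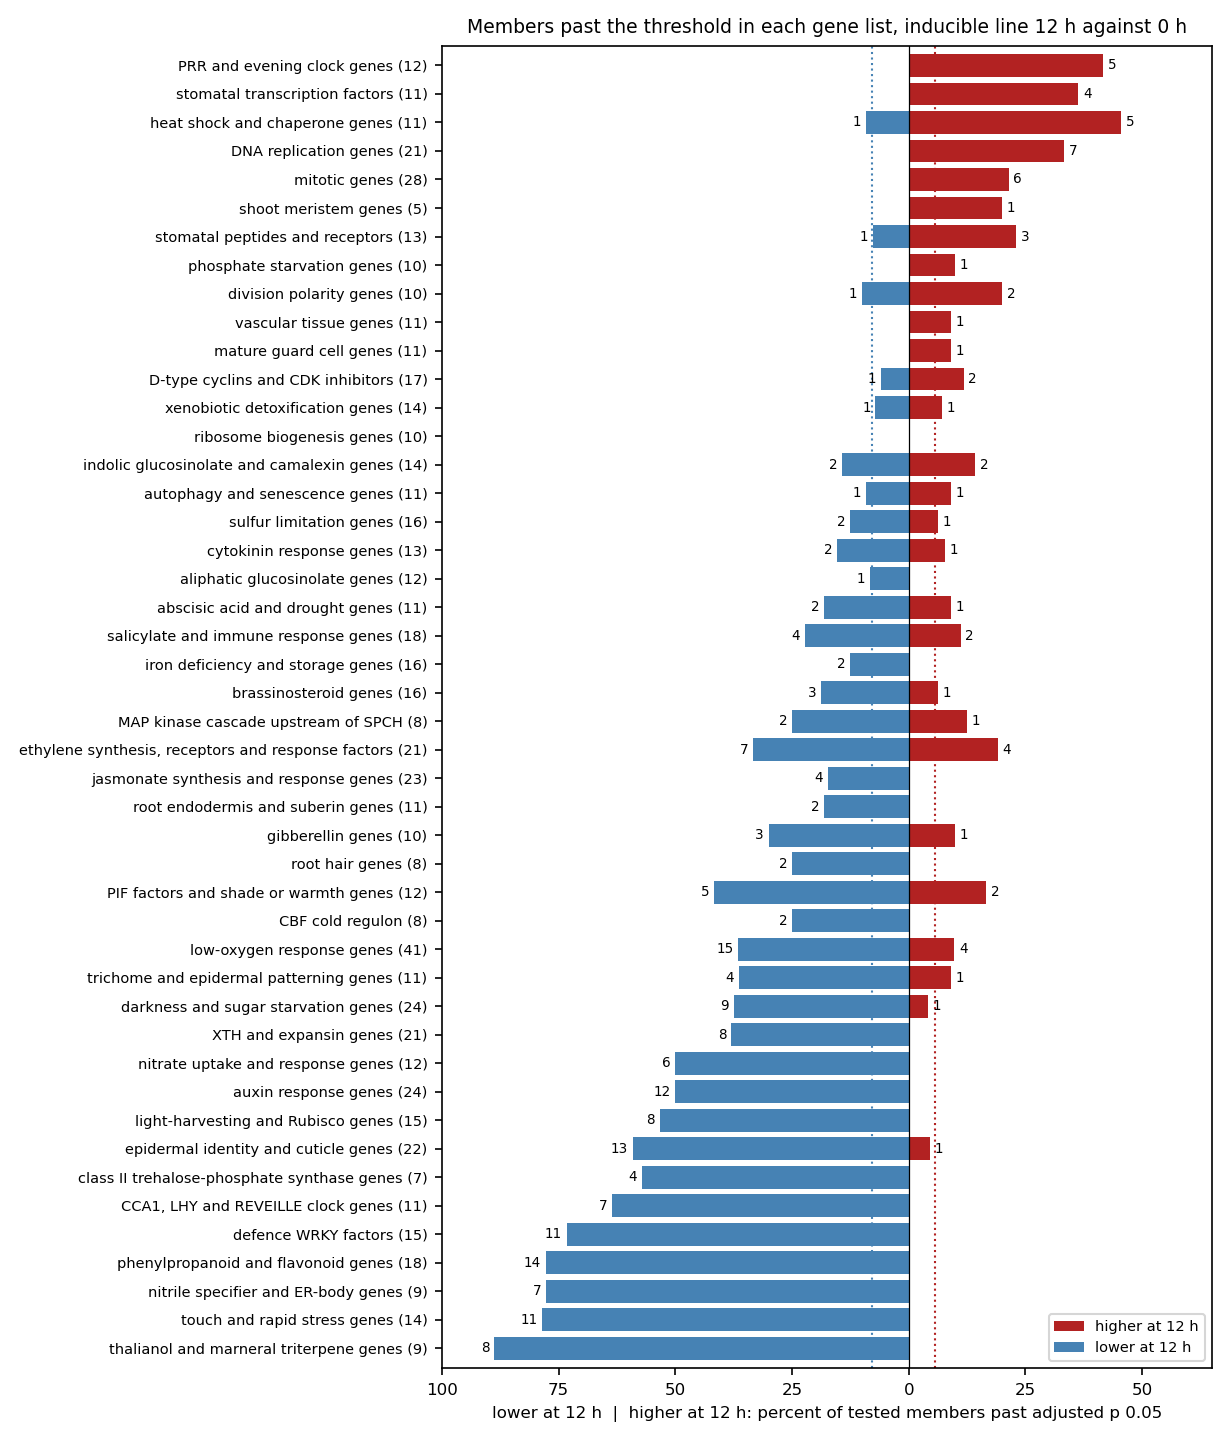
Share of tested members of each gene list that rose (right, red) or fell (left, blue) over 12 h in the inducible line, with the number of members tested in parentheses and counts at the bars; dotted lines mark 5.66% and 7.97%, the shares over all genes tested. Triterpene genes had 8 of 9 fallers and touch and rapid stress genes 11 of 14, while evening clock genes had 5 of 12 risers and DNA replication genes 7 of 21.

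The lists not described above had at most 3 members that passed in either direction. Of the cell type lists, 1 of 11 vascular genes (SUC2) and 1 of 5 meristem genes (CLV1) rose and none fell. Summed vascular levels were 5858 to 8335 at 12 h and 4996 to 7035 at 0 h, and summed meristem levels 1063 to 1210 at 12 h and 842 to 1039 at 0 h. Of 8 seed storage genes 1 passed the filter on low counts and did not change, and the list summed to 11.8 to 52.7 at 12 h and 3.14 to 202 at 0 h.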

How the data were processed

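RNA was extracted from whole seedlings and sequenced as poly-A libraries, per the labels' protocols. The deposited values are a signal per gene, the read count divided by a size factor of the library. Tools listed in the submitters' processing notes are TopHat, HTSeq, SAMtools and DESeq2, with the TAIR10 build. Their versions, the annotation release, the strand setting and the counting options are not given in the labels. Values of the 8 inducible-line libraries were whole multiples of 1 read (100% within 0.001 reads), so reads were recovered there for edgeR and DESeq2 as alternatives. The table held 33602 genes, of which 32835 matched RefSeq's TAIR10.1 annotation, from which names and coordinates come. A count of 0 allows up to 3 reads, at most 1.8e-05% of a library, and covers counting error only.

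Log2 (normalised count + 1) was fitted with limma (trend and robust variance) on the 4 libraries at 12 h and 4 at 0 h with a lane term, for genes with at least 10 normalised counts in at least 4 libraries. The same model on all 16 libraries gave the wild-type change and the line-by-time difference. P-values were adjusted by Benjamini and Hochberg over all genes tested, with a threshold of 0.05. SPCH and PIF4 were also tested by exact permutation without the lane term. Alternatives dropped the lane term, pooled all 16 libraries, blocked by replicate, changed the scaling, pseudocount or filter, took each lane alone and left out each library. Between libraries of 1 group of the inducible line the chi-square per degree of freedom was 10.8 to 44.8, so none of these were copies. Wild-type libraries were not checked in this way. The fits were tested on simulated data with known changes. Fewer genes changed there than were called in the real libraries. Genes and their lane effects were drawn independently, and the spread between libraries was capped. The rates below thus describe the simulated data and need not hold for the real libraries. That of the line recovered 62% of changes of log2 1 and 95% of those of log2 2, with 2 false among 159 calls. That of the difference recovered 34% and 76%, with 6 false among 116 calls. A gene that did not pass may thus still have changed or differed.

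Same-numbered libraries of the line share a lane, per the labels, and their deviations from the group means correlated at 0.713, 0.711, 0.617 and 0.65. After removal of lane means the correlations were 0.0568 in lane 1 and -0.268 in lane 2.

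The libraries are those the comparison names. The 47 gene lists and the genes named were chosen with earlier results of these data known, so no list was tested. The rule for names took SPCH and PIF4, the 15 largest rises and falls with groups that do not overlap, 5 risers and fallers with the most counts and the 8 largest differences each way. It also took the members of 3 stomatal lists and up to 4 members of each other list by adjusted p, and not every gene it took is described. CER4, ATML1, FIB2, CYP708A2, THAS1, AT5G47980, CYP705A5, NAI1, BGLU22, ERS1, DIN2, HSP17.6II, JAL31 and the neighbouring SAUR and GSTU genes lie outside it and were chosen after their values were seen. For the 15 largest rises and falls the lack of overlap was a condition of the choice, so it adds no support to them.

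Tools were R 4.3.3, limma 3.58.1, edgeR 4.0.16, DESeq2 1.42.0, Python 3.11.15, pandas 2.3.3 and SciPy 1.17.1. Some genes of the lists are not reported here.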

Additional observations from a re-analysis of the deposited data

Results flagged for a closer look

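In 26 of the 426 groups of 4 libraries behind the genes named (6.1%), 1 library lay so far from the other 3 that its gap exceeded Dixon's 95% critical value for 4 values. Gaps were taken on the scale of log2 (normalised count + 1). About 1 group in 20 would exceed the value with 4 independent normal values. Here each group held 2 libraries of each lane, and many genes were chosen for groups that do not overlap, so 6.1% cannot be read against that rate. The values printed are normalised counts of the inducible line, and what set these libraries apart was not tested. At 12 h, replicate 1 was the highest for CYP708A2 (980.79), NAI1 (1395.6) and CZF1 (1410.1). At 12 h, replicate 1 was the lowest for SDD1 (130.84), TPX2 (210.31) and BZIP63 (274.27). At 12 h, replicate 2 was the highest for SUC2 (2031.9). At 12 h, replicate 3 was the lowest for SCAP1 (56.509) and RVE1 (126.43). At 12 h, replicate 4 was the highest for EPF2 (722.69) and AT4G30230 (83.078). At 0 h, replicate 1 was the highest for NUC-L1 (8667.2). At 0 h, replicate 1 was the lowest for MYB23 (23.057) and RVE2 (1400.2). At 0 h, replicate 2 was the highest for HSP101 (406.77). At 0 h, replicate 3 was the highest for CYCB1;2 (484.52), AT1G33930 (26.68), CZF1 (3247.5) and JAZ2 (878.32). At 0 h, replicate 3 was the lowest for FLP (216.65), BAK1 (1295.6), CER4 (164.35), MRN1 (1144.1) and CYP71A16 (345.78). At 0 h, replicate 4 was the highest for NAI2 (7734.7) and PRP3 (953.64).

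Of the genes named, 62 had a change over 12 h in the inducible line that differed from the change in wild type, by a test of the difference itself in limma with all 16 libraries and the lane term (adjusted p below 0.05). Each value is the log2 change in the inducible line minus that in wild type. Where such a call rests on single libraries is given with the gene. Among genes of the stomatal lineage and epidermal pattern the differences were 3.113 for EPF2, 2.867 for CPL3, 2.421 for BASL, 2.32 for TMM, 1.825 for POLAR, 1.068 for ICE1, 1.02 for SCRM2 and 0.7683 for ERL1. Among genes of division, the nucleolus, cytokinin and ethylene they were 1.051 for CYCB1;1, 0.5833 for CYCD3;2, 0.8924 for FIB2, 0.7218 for NUC-L1, 0.6864 for CBF5, 1.433 for ARR16 and 1.433 for ACO1. Among less described genes that rose they were 2.13 for AT5G10890, 2.07 for AT4G30230, 1.995 for AT4G29020, 1.99 for AT3G14760 and 1.637 for AT1G33930. Among genes of the cuticle and lipids they were -1.903 for CER1, -1.352 for CER4, -0.8295 for LTP1 and -4.066 for AT1G06100. Among triterpene genes they were -2.279 for MRN1, -1.807 for CYP71A16, -1.782 for CYP705A12, -2.052 for SQP2, -2.117 for CYP708A2, -2.306 for THAS1, -2.256 for AT5G47980 and -1.813 for CYP705A5. Among ER-body and nitrile specifier genes they were -0.9409 for PYK10, -0.8758 for PBP1, -1.041 for NSP1, -0.9027 for NSP4, -1.525 for NAI1 and -1.681 for BGLU22. Among genes of nutrients, sugar and low oxygen and genes that fell with them they were -1.811 for BHLH101, -1.424 for SULTR1;2, -0.9739 for TPS11, -0.7861 for TPS8, -0.9381 for AT3G15450, -1.002 for ACR7, -0.6185 for AT5G21940, -1.279 for AT3G23170 and -2.447 for GDH3. Among genes of growth, light and hormones they were -0.9253 for PIF4, -1.343 for EXPA5, -0.9607 for IAA3, -0.8201 for LHCB3, -1.616 for CYP707A3 and -0.7498 for ERF4. Among jasmonate, defence and lectin genes they were -0.9862 for JAZ3, -0.6335 for JAZ2, -0.8173 for EDS5, -1.028 for WRKY22, -3.433 for THI2.2 and -3.373 for AT1G52130. The remaining values were -2.74 for AT5G04120, -2.446 for CPK22 and -2.419 for AT5G14650. The difference of LTP1 was lost without 0 h replicate 3 or 4 or 12 h replicate 2 of the line or wild-type 12 h replicate 2 or 4 (adjusted p = 0.0555 to 0.0735). That of ACO1 was lost without 0 h replicate 1 or 4 of the line or replicate 4 of either wild-type group (0.0501 to 0.0571). Those of JAZ2 and EDS5 were each lost in 12 of 16 fits without 1 library (0.0566 to 0.0924 and 0.0517 to 0.0996), and that of JAZ2 also with the replicate block (0.0576). JAZ2 kept it without 12 h replicate 1 of the line, wild-type 0 h replicate 1 or wild-type 12 h replicate 2 or 3, and EDS5 without 0 h replicate 2 or 12 h replicate 1 of the line, wild-type 0 h replicate 1 or wild-type 12 h replicate 3.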

How the results depend on the processing

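In the inducible line 2759 genes changed. Without the lane term 1192 changed (372 higher, 820 lower), in all 16 libraries without it 1063 (299 higher, 764 lower), and in all 16 with it 668 rose. Lane 1 alone gave 816 (210 higher, 606 lower) and lane 2 alone 832 (235 higher, 597 lower), on 4 libraries each. Leaving out 1 library gave 713 to 888 rises. edgeR called 2811 genes, DESeq2 2988 and TMM scaling 2779, and other pseudocounts or filters 2544 to 2796. The line-by-time difference, called for 586 genes, fell to 106 without the lane term (20 higher, 86 lower). It fell to 117 in lane 2 alone (28 higher, 89 lower) and to 3 in lane 1 alone, with 0 lower by limma and 1409 genes at an unadjusted p below 0.05. Leaving out 1 library gave 234 to 1934 differences, 45 to 861 of them higher and 189 to 1073 lower. No count test was run for the difference. With each replicate number as a block 2433 genes changed and 518 differed. The block ended 11 of the 187 changes and 8 of the 62 differences among named genes, made 3 differences pass (SBT3.3, DCR at adjusted p = 0.0453 and ALD1 at 0.0396), and changed no other named call. Without 1 library the log2 change of SPCH was 0.423 to 0.6151 and that of PIF4 -0.652 to -0.5066, with an exact permutation p of 0.0571 without any 0 h library for SPCH and without 0 h replicate 1, 2 or 3 for PIF4, and 0.0286 without any other library. No called result of a named gene changed sign in the fits run. All 2759 changes of the line had the same sign in each lane alone, and other genes were not checked further. Among named genes, 46 of the 187 changes and 33 of the 62 differences were lost without the lane term. In all 16 libraries 19 changes were lost with the lane term and 53 without it. Lane 1 alone lost 64 changes and 59 differences, and lane 2 alone 79 and 44. Without a filter 2 changes and 11 differences were lost, and 464 genes differed. edgeR and DESeq2 each ended 1 change and TMM scaling none, while TMM scaling ended 1 difference (ERL1) and made 1 pass. With a pseudocount of 5 the differences of AT1G06100 and THI2.2, both near 0 at 12 h, were -2.299 and -2.016, against -4.066 and -3.433 with 1.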

Other observations

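Several regulators fell over 12 h with a line-by-time difference. ERF4, an ethylene-responsive repressor, had 1700, 1296, 1552 and 1574 normalised counts at 12 h, against 2634, 2617, 2949 and 2908 at 0 h. Its groups did not overlap (log2 -0.86, limma adjusted p = 3.5e-05), wild type had -0.11, and the line-by-time difference was -0.75 (adjusted p = 0.024). That difference was lost without 0 h replicate 3 or 4 or 12 h replicate 2 of the line (adjusted p = 0.0532, 0.0621 and 0.0684). WRKY22, which acts in immune signalling, had 172, 157, 196 and 142 at 12 h, against 537, 645, 815 and 572 at 0 h (log2 -1.93, adjusted p = 4.9e-06). CYP707A3, which breaks down abscisic acid, had 152, 79.4, 90.0 and 77.7 at 12 h, against 595, 667, 714 and 530 at 0 h (log2 -2.69, adjusted p = 2.1e-05). IAA3, a repressor within auxin signalling, had 505, 497, 345 and 332 at 12 h, against 997, 906, 547 and 832 at 0 h (log2 -0.96, adjusted p = 0.00015). None of these groups overlapped. Differences passed for WRKY22 (-1.03, adjusted p = 0.036), CYP707A3 (-1.62, adjusted p = 0.031) and IAA3 (-0.96, adjusted p = 0.036), and were lost in 10, 7 and 11 of 16 fits without 1 library. The adjusted p there was 0.0575 to 0.0803 for WRKY22, 0.0543 to 0.0781 for CYP707A3 and 0.0505 to 0.0876 for IAA3. WRKY22 kept its difference without 0 h replicate 1 or 4 or 12 h replicate 1 or 3 of the line, wild-type 0 h replicate 1 or wild-type 12 h replicate 2. CYP707A3 lost it without 0 h replicate 3 or 4 or 12 h replicate 2 or 4 of the line, wild-type 0 h replicate 4 or wild-type 12 h replicate 2 or 4. IAA3 kept it without 0 h replicate 2 or 3 of the line, wild-type 0 h replicate 1 or wild-type 12 h replicate 1 or 4. With the replicate block the adjusted p was 0.0518 for CYP707A3 and 0.0562 for IAA3.

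Other falls with a difference came from genes of varied roles. LHCB3, of the light-harvesting complex, had 9028, 11657, 10219 and 9608 normalised counts at 12 h, against 16928, 17207, 14698 and 12554 at 0 h (log2 -0.59, limma adjusted p = 0.0022, difference -0.82 with adjusted p = 0.024). Its difference was lost without 0 h replicate 2 of the line or wild-type 12 h replicate 2 (adjusted p = 0.0503 and 0.0617). GDH3, a glutamate dehydrogenase, had 6.78, 3.92, 3.83 and 2.68 at 12 h, against 62.9, 22.9, 28.8 and 37.3 at 0 h, with a difference of -2.45 (adjusted p = 0.0049). THI2.2, a thionin, had 0 to 2.91 at 12 h and 14.3 to 19.2 at 0 h, and AT1G52130, a mannose-binding lectin, 0 to 7.75 at 12 h and 30.5 to 58.2 at 0 h. The differences of these 3 low genes held without each library. AT5G21940, AT3G23170 and AT3G15450 fell by 2.85, 3.10 and 2.56 in the line and changed by -2.23, -1.82 and -1.63 in wild type. Their differences (adjusted p = 0.047, 0.042 and 0.038) were lost in 11, 12 and 10 of 16 fits without 1 library, and the first pair also with the replicate block (0.068 and 0.0617). AT5G21940 kept it without 0 h replicate 1 or 12 h replicate 3 of the line, wild-type 0 h replicate 1 or 4 or wild-type 12 h replicate 1. AT3G23170 kept it without 0 h replicate 1 or 12 h replicate 1 or 3 of the line or wild-type 0 h replicate 1. AT3G15450 kept it without 0 h replicate 1, 2 or 4 or 12 h replicate 3 of the line or replicate 1 of either wild-type group.

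Among the short lists, PAP17, a phosphatase of phosphate starvation, rose in the line (log2 0.93, limma adjusted p = 0.0004) and also rose in wild type (0.52, adjusted p = 0.015). The cold regulator CBF2 fell (-2.0, adjusted p = 0.00039), as did GASA6 and the receptor GID1A of gibberellin response (-1.65, adjusted p = 2.6e-05, and -0.44, adjusted p = 0.0054). The cytokinin response regulators ARR8 and ARR9 fell (-0.45, adjusted p = 0.0029, and -0.48, adjusted p = 0.0019), while ARR16 rose. Regulators and enzymes of indolic glucosinolates moved both ways. MYB122 and CYP83B1 rose (1.15, adjusted p = 0.0025, and 0.44, adjusted p = 0.011), and MYB51 and IGMT2 fell (-0.49, adjusted p = 0.0074, and -0.85, adjusted p = 0.0047). ATG8E, of autophagy, fell (-0.65, adjusted p = 0.0019).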
